A study of Mus musculus with 6 samples.

Results

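Chemoattractant receptors were examined in macrophages sorted from COX-competent and COX-deficient melanomas. The genes were chosen by name from the deposited count table: the chemokine receptors Ccr1, Ccr2, Ccr7, Cx3cr1, Cxcr2 and Cxcr4, the atypical receptor Ccrl2, and the formyl peptide receptors Fpr1 and Fpr2. The table lists 39179 genes and holds all 9 of these. Ccr7 had no counts, and the other 8 passed the filter on low counts. Tumor-associated macrophages (TAMs) came from subcutaneous tumors of Braf V600E-driven melanoma cells implanted in C57BL/6 hosts 8 weeks old. The injected tumor cells were wildtype (Ptgs-competent, 3 libraries) or deficient in Ptgs1 and Ptgs2, the genes of the prostaglandin-forming enzymes COX-1 and COX-2 (Ptgs-deficient, 3 libraries). Only the tumor cells carried the edit. The sorted macrophages had the unedited genotype of the host throughout, and their transcripts cannot check it. Live leukocytes (CD45+) were sorted for CD11b and F4/80 and against NK1.1 and Ly6G, with Ly6C absent or dim, a gate that removes Ly6G+ neutrophils and Ly6C-high monocytes, and each library was a pool of tumors per the study's methods. The p-values below therefore measure the spread between pools.

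Chemokine receptors are membrane-spanning proteins coupled to inhibitory G proteins, and they steer leukocytes along gradients of chemokines. CCR2 draws classical monocytes out of the bone marrow towards CCL2 and CCL7 and is usually lost as these cells mature into macrophages, whereas CX3CR1, the receptor of membrane-bound CX3CL1, marks patrolling monocytes and many tissue macrophages. CXCR2 serves mainly neutrophils, CCR7 takes dendritic cells to lymph nodes, and formyl peptide receptors sense bacterial and mitochondrial peptides. CCRL2 binds chemerin without classical signalling.

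Ccr2 and Ccrl2 were the only members whose levels did not overlap between the groups after TMM scaling, and their promoter windows are shown for that reason. RefSeq (GRCm38.p6) gave a window for 8 of the 9 members, each from 250 bases before to 50 bases after an annotated start. The Ccr2 window lies at chr9:124101933-124102232 on the plus strand and the Ccrl2 window at chr9:111057469-111057768 on the minus strand. In the GENCODE annotation Ccr2 starts at chr9:124101950, so most of the Ccr2 window lies inside that gene model. Both windows are written 5′ to 3′, with motif matches in capitals.
Ccr2: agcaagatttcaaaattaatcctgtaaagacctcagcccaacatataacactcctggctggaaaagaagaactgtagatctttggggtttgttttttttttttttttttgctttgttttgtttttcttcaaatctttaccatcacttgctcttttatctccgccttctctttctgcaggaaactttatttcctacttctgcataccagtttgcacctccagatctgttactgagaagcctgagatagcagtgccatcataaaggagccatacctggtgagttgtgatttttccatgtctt
Ccrl2: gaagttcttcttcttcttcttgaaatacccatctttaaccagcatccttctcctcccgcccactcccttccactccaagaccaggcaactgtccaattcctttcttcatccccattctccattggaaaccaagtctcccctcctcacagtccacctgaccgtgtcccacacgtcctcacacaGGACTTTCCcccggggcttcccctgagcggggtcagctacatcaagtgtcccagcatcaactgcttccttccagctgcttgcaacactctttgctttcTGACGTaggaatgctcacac
The capitals in the Ccrl2 window mark GGACTTTCC, a kappaB sequence, 68 bases before the start (position -68), and TGACGT, the first part of a cyclic AMP response element, at position 30 after it. They do not overlap each other. The window shown is 1 of 3 given for Ccrl2. The others do not hold GGACTTTCC, and TGACGT lies at positions -244 and -218 from their starts. Searched on both strands, GGACTTTCC occurred in 0.344% of 32851 mouse promoter windows of this length and TGACGT in 7.51%. Among the 10 member windows, TGACGT matched at 1 genomic site, which 3 overlapping alternative windows of Ccrl2 share. The GAS motif TTCNNNGAA matched only in the Fpr2 window (8.30% of all windows). No member window held the whole element TGACGTCA (1.79% of all windows), GAAANNGAAA (3.44%) or the PU.1 motif GAGGAAGT (3.20%). A match of letters is a description of the window and not a bound site.

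Library totals ranged from 4431184 to 8760679 counts, and 7794 to 10714 genes had a count. Levels are given as CPM, counts per 1000000 counts of the library after TMM scaling. Since the kit reads the 3′ end of each transcript, CPM does not scale with transcript length, and levels are set side by side between genes on that basis, with less certainty for Cx3cr1, Cxcr2 and Fpr2, whose 3′ ends hold sequence found in other genes. All 12 macrophage markers had counts, and their summed level was 17597, 18681 and 6741 CPM in Ptgs-competent replicates 1, 2 and 3 and 22198, 21753 and 25967 CPM in the Ptgs-deficient pools. Ptgs-competent replicate 3 stood apart, and the members' fold changes are given with and without this library. Its Cd68 was at 26.5 CPM against 405 to 516 CPM in the other libraries, and its stromal or endothelial markers summed to 959 CPM. That list summed to 412 and 470.1 CPM in Ptgs-competent replicates 1 and 2 and to 98.9, 84.2 and 88.6 CPM in the Ptgs-deficient pools, all 6 of its tested markers being lower there, 4 without overlap (8.01% of all tested genes) and 0 called (0.216% of all tested genes in either direction, by the edgeR test and thresholds given with the comparison). The part of stromal transcripts in the receptor differences was not tested. Of 9 neutrophil markers, the defining Ly6g was at 0 in all libraries, and the list summed to 591 to 651 CPM in Ptgs-competent and 420 to 511 CPM in the Ptgs-deficient pools. Defining markers were also at 0 throughout for NK or T cells (7 of 10 markers at 0, among them Ncr1, Cd3e and Trac), for B cells (3 of 4) and for melanoma cells (6 of 7, all but Mitf). Of 8 dendritic cell markers only Zbtb46 was at 0 throughout, and the list summed to 14.5, 15.8 and 42.7 CPM in Ptgs-competent and 45.1, 42.6 and 57.3 CPM in the Ptgs-deficient pools. Among them Ccl17 was at 0 in each Ptgs-competent library and at 24.5, 34.3 and 30.8 CPM in the Ptgs-deficient ones. Fscn1 ran the other way, at 0, 15.8 and 42.7 CPM against 0.365, 0 and 0 CPM. The means of Flt3 and Cd209a were also lower in the Ptgs-deficient pools. Clec9a, Ccl22 and Siglech each had counts in only 1 library, a Ptgs-deficient one. Of 7 classical monocyte markers, all had counts, and the list summed to 851 to 2121 CPM in Ptgs-competent and 4401 to 5526 CPM in the Ptgs-deficient pools, most of it from F13a1, a gene that macrophages also express. In bulk libraries, fewer cells of a type and less RNA per cell cannot be told apart.

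The comparison asked whether receptor transcripts in TAMs differ when the tumor cells lack cyclooxygenases. Calls required a Benjamini-Hochberg adjusted p (FDR) no higher than 0.05 together with an absolute log2 fold change of at least 1.5, by the edgeR quasi-likelihood test across 8793 genes. None of the 8 tested members was called, against 0.216% of all tested genes. At an unadjusted p under 0.05, 2 members (Ccr2 and Ccrl2) were higher in the Ptgs-deficient pools, against a background of 5.00% of genes. The same 2 did not overlap between groups, all Ptgs-deficient values lying above all Ptgs-competent ones, against 11% of genes. Fold changes were positive for 6 members and negative for 2 (5 and 3 with scaling to summed macrophage markers, where Cx3cr1 turned), with a median log2 fold change of 0.83, beside 0.02 over all tested genes. The 12 macrophage markers moved to a like degree, with a median log2 fold change of 0.75. Of these markers 10 had a positive and 2 a negative fold change, and 6 were higher without overlap. Ccr2 alone was called by some other fits, namely the edgeR likelihood ratio test (which called 2.74% of genes), DESeq2 (3.73%), limma voom (1.40%) and the quasi-likelihood test without the count filter (1.89%).

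**Figure D1:**
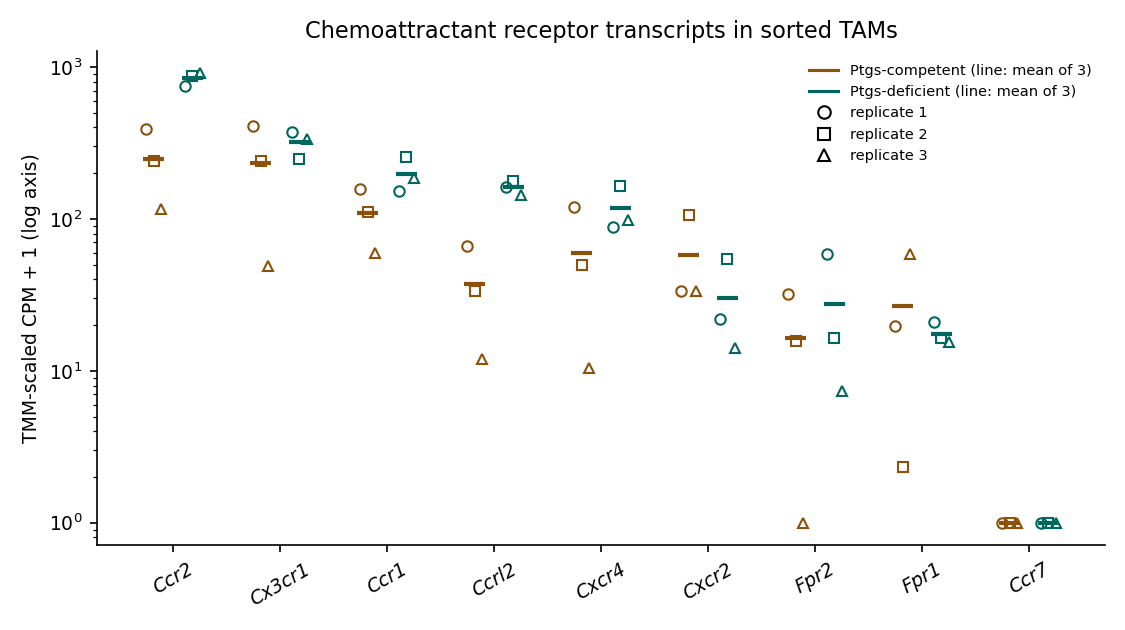
Level of each receptor gene in each library as TMM-scaled CPM plus 1 on a log axis, with symbols for replicates, colors for groups and a line at the mean of 3. Ccr2 (749.6 to 909 CPM) and Ccrl2 (144 to 177 CPM) in Ptgs-deficient pools lie above every Ptgs-competent library, Ptgs-competent replicate 3 (triangle) is lowest for Ccr2, Cx3cr1, Ccr1, Ccrl2, Cxcr4 and Fpr2, and Ccr7 is at 0 throughout.

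Among the receptors of inflammatory monocytes, Ccr2 was at 387, 238 and 114 CPM in Ptgs-competent replicates 1, 2 and 3 and at 749.6, 865 and 909 CPM in the Ptgs-deficient pools. The lowest Ptgs-deficient library was thus well above the highest Ptgs-competent one. Group means were 247 ± 136 and 841 ± 82.2 CPM (SD, n = 3), a 3.41-fold difference. The log2 fold change was 1.77 ± 0.43 (SE), with an unadjusted p of 0.00216 and an FDR of 0.171 by edgeR's quasi-likelihood test, so that it was not called. Without Ptgs-competent replicate 3 the log2 fold change was 1.47 ± 0.33 (FDR 0.147 by the same edgeR test). Over all alternatives the FDR of Ccr2 ranged from 0.00171 to 0.587 and the log2 fold change from 1.07 to 2.26. Scaling libraries to their summed macrophage markers, an alternative added after the data were seen, gave the lowest of these values. Per 1000 CPM of macrophage markers, Ccr2 was at 22.0, 12.8 and 17.0 CPM in Ptgs-competent and 33.8, 39.8 and 35.0 CPM in the Ptgs-deficient pools, again without overlap (exact two-sided permutation test, p = 0.1, the smallest that 3 against 3 libraries allow). Classical monocyte markers moved with Ccr2 in part, with 4 of the 6 tested markers higher and 2 (Vcan and Hp) lower in the Ptgs-deficient pools. Plac8 was at 56.9, 109 and 112 CPM in Ptgs-competent pools and at 598, 1183 and 769 CPM in the Ptgs-deficient ones, and it was the 1 monocyte marker called (FDR 0.0230 by edgeR's quasi-likelihood test). Ly6c2, which encodes a Ly6C antigen on which the sort was gated, was at 49.2, 33.8 and 0.216 CPM against 96.5, 283 and 239 CPM. Of 7 markers of resident macrophages, Lyve1, Folr2, Cd163 and Mrc1 had counts in all libraries and moved with Ccr2 as well. They were higher without overlap (11% of all genes) and not called, with log2 fold changes of 3.81, 2.48, 1.44 and 0.99. Cd5l, Siglec1 and Timd4 had at most 3 counts in any Ptgs-competent library. They passed the count filter through the Ptgs-deficient pools and could only come out higher. Their lack of overlap and the call of Cd5l (FDR 0.00453 by edgeR's quasi-likelihood test, 0.216% of all genes called) are therefore given as description only. The list of 7 summed to 692, 891 and 354 CPM in Ptgs-competent and 1946, 2287 and 2225 CPM in the Ptgs-deficient pools. The part of monocyte and of resident macrophage transcripts in the Ccr2 difference was not tested.

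Ccr1, a receptor of CCL3, CCL5, CCL6 and CCL9 on monocytes and macrophages, was at 155, 110.3 and 59.1 CPM in Ptgs-competent and 151, 254 and 185 CPM in the Ptgs-deficient pools. The groups overlapped by a narrow margin, at Ptgs-competent replicate 1 and Ptgs-deficient replicate 1. Its log2 fold change was 0.86 ± 0.46 (SE), and ran from 0.61 ± 0.42 without Ptgs-competent replicate 3 to 1.22 ± 0.50 without Ptgs-competent replicate 1. It was 0.12 ± 0.54 with scaling to macrophage markers. The ratio of Ccr2 to Ccr1 within each library, which does not depend on scaling between libraries, was 2.49, 2.16 and 1.94 in Ptgs-competent and 4.96, 3.41 and 4.92 in the Ptgs-deficient pools. These values did not overlap (exact permutation p = 0.1), and the smallest Ptgs-deficient ratio exceeded the largest Ptgs-competent one.

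Ccrl2, the non-signalling chemerin receptor, had the largest fold change of the members in the fit of all 6 libraries. Its level was 65.0, 32.3 and 10.99 CPM in Ptgs-competent pools and 161, 177 and 144 CPM in the Ptgs-deficient ones. The Ptgs-deficient pools lay close together, whereas the Ptgs-competent ones were spread. Means were 36.1 ± 27.2 and 160.4 ± 16.7 CPM (SD, n = 3), a 4.44-fold difference. The log2 fold change was 2.15 ± 0.66 (SE), with an unadjusted p of 0.00847 and an FDR of 0.292 (edgeR quasi-likelihood), and with 1 library left out it ranged from 1.76 ± 0.51 (without Ptgs-competent replicate 3) to 2.89 ± 0.67 (without Ptgs-competent replicate 1). Scaling to macrophage markers gave 1.56 ± 0.73. The FDR ranged from 0.0704 to 0.734 over the alternatives, none of which called it. Per 1000 CPM of macrophage markers, Ccrl2 was at 3.70, 1.73 and 1.63 CPM against 7.23, 8.14 and 5.53 CPM (exact permutation p = 0.1). The signalling receptor of chemerin, Cmklr1, had a log2 fold change of 0.43 ± 0.50 (SE), from 0.14 without Ptgs-competent replicate 3 to 1.09 without Ptgs-competent replicate 1 and turning to -0.26 with macrophage-marker scaling, and Rarres2, which encodes chemerin, had 0 counts in all libraries.

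Cx3cr1 was at 409.9, 241 and 47.9 CPM in Ptgs-competent pools and at 370.4, 248 and 334 CPM in the Ptgs-deficient ones. Ptgs-competent replicate 3 was by far the lowest, and the other 5 libraries overlapped. The log2 fold change of 0.45 ± 0.61 (SE) came to 0.01 ± 0.36 without that library and to 1.14 ± 0.66 without Ptgs-competent replicate 1, and its sign turned (-0.08) with scaling to macrophage markers. These errors leave room for a difference in either direction. The ratio of Ccr2 to Cx3cr1 was 0.943, 0.988 and 2.39 in Ptgs-competent and 2.02, 3.49 and 2.72 in the Ptgs-deficient pools. Cx3cr1 thus outranked Ccr2 in Ptgs-competent replicates 1 and 2, and Ccr2 outranked Cx3cr1 in the other 4 libraries. The groups overlapped through Ptgs-competent replicate 3 (exact permutation p = 0.2).

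Cxcr4, the CXCL12 receptor that retains leukocytes in tissue and marrow, was at 119, 48.9 and 9.48 CPM in Ptgs-competent pools and at 87.8, 163 and 97.0 CPM in the Ptgs-deficient ones. Its log2 fold change was 0.98 ± 0.80 (SE, FDR 0.999 by edgeR's quasi-likelihood test) and ran from 0.51 ± 0.57 without Ptgs-competent replicate 3 to 1.99 ± 0.85 without Ptgs-competent replicate 1 (FDR 0.385 by the same edgeR test). The Ptgs-competent pools alone spanned a wider range than the difference of the means, 59.0 ± 55.2 against 116 ± 41.3 CPM (SD, n = 3).

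The neutrophil receptor Cxcr2 was the only chemokine receptor of the members with a lower mean in the Ptgs-deficient pools. It was at 32.4, 106 and 32.3 CPM against 20.8, 53.2 and 13.04 CPM, with overlapping groups and a log2 fold change of -0.97 ± 0.97 (SE, FDR 0.9995 by edgeR's quasi-likelihood test). With 1 library left out it ranged from -1.75 (without Ptgs-deficient replicate 2) to -0.15 ± 1.17 (without Ptgs-competent replicate 2, the library with the most Cxcr2), and it was -1.18 ± 0.95 without Ptgs-competent replicate 3. Beside it, the neutrophil gene S100a8 was at 258, 309.7 and 294 CPM in Ptgs-competent and 218, 120.2 and 72.4 CPM in the Ptgs-deficient pools, while Ly6g was at 0. Of the 6 tested neutrophil markers 4 had a negative and 2 a positive fold change, and 0 were called. Retnlg, another neutrophil gene, ran the other way, at 20.2, 59.9 and 16.2 CPM against 123, 114 and 180.2 CPM, without overlap (log2 fold change 2.11 ± 0.66, SE), and Csf3r had 1.04 ± 1.58. The part of neutrophil transcripts in the Cxcr2 values was not tested. Per 1000 CPM of macrophage markers, Cxcr2 was at 1.84, 5.66 and 4.80 CPM in Ptgs-competent and 0.937, 2.45 and 0.502 CPM in the Ptgs-deficient pools, again with overlap (exact permutation p = 0.2).

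The formyl peptide receptors were low and variable. Fpr1 was at 18.6, 1.31 and 57.6 CPM in Ptgs-competent pools and at 19.9, 15.4 and 14.5 CPM in the Ptgs-deficient ones. Ptgs-competent replicate 3, lowest for most members, was here the highest, and without it the log2 fold change went from -0.64 ± 1.59 to 0.76 ± 2.05 (SE). Fpr2 was at 31.2, 14.8 and 0 CPM against 57.8, 15.4 and 6.41 CPM, and its log2 fold change was 0.79 ± 1.93 (SE) with and 0.25 ± 1.44 without that library. The 0 in Ptgs-competent replicate 3 allows up to 0.647 CPM (3 counts). No direction can be given for either gene. Fpr2 shares its locus with the gene model of Fpr3, which had 0 counts.

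Ccr7, the receptor of mature dendritic cells and naive T cells, had 0 counts in all 6 libraries, which allows up to 0.357 to 0.647 CPM by library (3 counts). Its ligand transcripts Ccl19 and Ccl21a also had 0 counts. These floors cover counting error only.

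**Figure D2:**
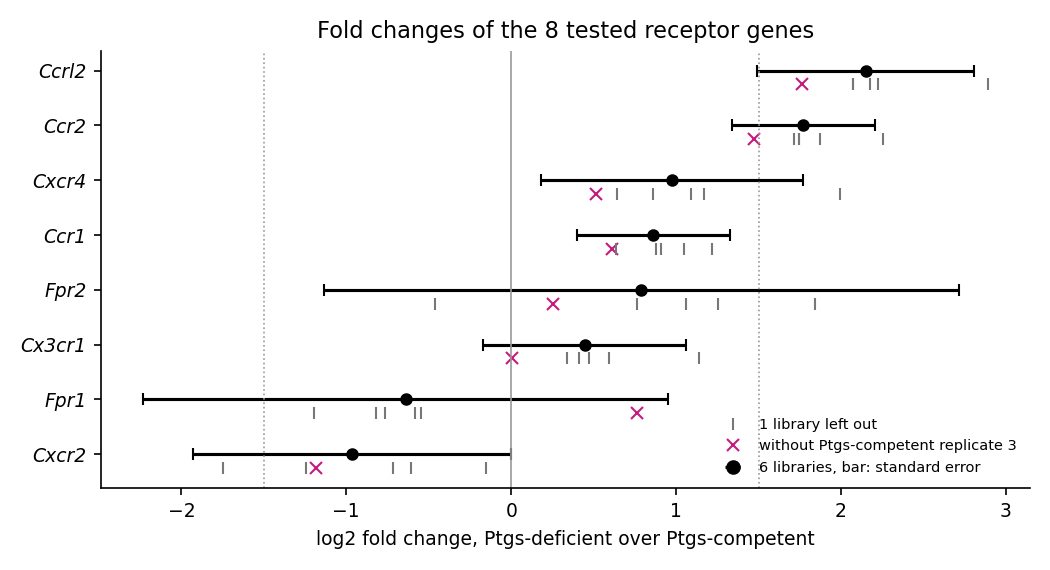
Log2 fold change (Ptgs-deficient over Ptgs-competent) of the 8 tested receptor genes: dots with standard error bars use 6 libraries, ticks leave out 1 library and crosses leave out Ptgs-competent replicate 3. Dotted lines mark 1.5 in either direction. Ccrl2 (2.15) and Ccr2 (1.77) stay above 1.4 in each fit, and Fpr1 changes sign at the cross (0.76).

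In order of mean level, the Ptgs-deficient pools held Ccr2, Cx3cr1 (317 ± 63.1 CPM), Ccr1 (197 ± 52.3), Ccrl2, Cxcr4, Cxcr2 (29.0 ± 21.3), Fpr2 (26.5 ± 27.5) and Fpr1 (16.6 ± 2.90; SD, n = 3). Ccr2 was above Cx3cr1, and Cxcr4 above Cxcr2, without overlap between the libraries, whereas all other neighbors overlapped. Reads of Cx3cr1, Cxcr2 and Fpr2 may be shared with other genes or lost, so their places are less certain. In the Ptgs-competent pools the order was Ccr2, Cx3cr1 (233 ± 181), Ccr1 (108 ± 48.1), Cxcr4, Cxcr2 (56.8 ± 42.4), Ccrl2, Fpr1 (25.8 ± 28.8) and Fpr2 (15.3 ± 15.6), and every pair of neighbors overlapped. Without Ptgs-competent replicate 3 the means of Cx3cr1 (325.6 CPM) and Ccr2 (312.6 CPM) changed places, as did those of Fpr2 (23.0 CPM) and Fpr1 (9.98 CPM). The summed level of the members was 1218, 793 and 332 CPM in Ptgs-competent and 1618, 1791 and 1702 CPM in the Ptgs-deficient pools.

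The make-up of this sum within each library does not depend on library scaling. Ccr2 held 32.1% ± 2.24 of the summed receptor counts in Ptgs-competent and 49.3% ± 3.64 in Ptgs-deficient pools (SD, n = 3). The highest Ptgs-competent share was 34.5% (exact 95% interval 32.1 to 36.9) and the lowest Ptgs-deficient share 46.3% (45.3 to 47.4). The share of Ccrl2 was 4.24% ± 1.02 and 9.42% ± 0.85, from a highest Ptgs-competent share of 5.34% (4.85 to 5.87) to a lowest Ptgs-deficient share of 8.44% (7.85 to 9.06). Both shares reached the smallest p the exact permutation test allows here (0.1). In Ptgs-competent replicate 3, Fpr1 took 17.3% (15.5 to 19.3) of the sum, against at most 1.53% (1.27 to 1.83) in the other libraries. The remaining members had overlapping shares. Intervals treat each read as a separate molecule and cover counting error of reads only. Reads copied by PCR are not separate molecules, so the intervals may be too narrow even for that error.

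**Figure D3:**
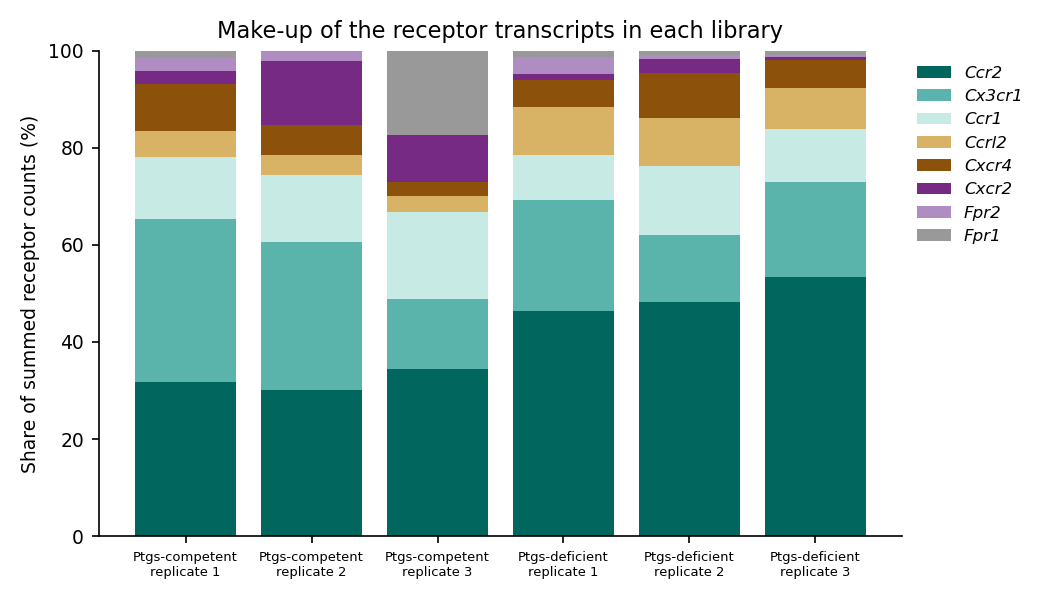
Share of each receptor gene in the summed counts of the 8 detected receptor genes, in percent, 1 stacked bar per library. The Ccr2 segment ends between 30.1 and 34.5% in the Ptgs-competent bars and between 46.3 and 53.4% in the Ptgs-deficient bars, and Fpr1 is wide only in Ptgs-competent replicate 3 (17.3%).

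Ligand transcripts in the same cells were examined beside the receptors. Of 22 ligand genes, 16 were tested, 12 with a positive and 4 with a negative fold change (median log2 fold change 0.95). Ppbp alone was called, lower in the Ptgs-deficient pools. The levels of 7 ligand genes were higher without overlap (11% of all genes) and of 1 lower without overlap (8.01% of all genes). Each of the 3 CCR2 ligands was higher without overlap and not called. Ccl2 was at 98.8, 216 and 208 CPM against 391, 1581 and 933 CPM, a log2 fold change of 2.47 ± 0.53 (SE, FDR 0.111 by edgeR's quasi-likelihood test). Ccl7 was at 10.5, 81.9 and 148 CPM against 266, 1203 and 717 CPM (3.18 ± 0.85, edgeR FDR 0.208), and its log2 fold change was 4.05 without Ptgs-competent replicate 3. Ccl12 had a log2 fold change of 2.49 ± 1.13 (edgeR FDR 0.579), and 3.18 without Ptgs-competent replicate 1. Macrophage-marker scaling gave 1.39 for Ccl2, 1.82 for Ccl7 and 1.38 for Ccl12. For CCR1, the ligand Ccl6 was at 2312, 3232 and 1989 CPM against 4295, 7621 and 6709 CPM, a log2 fold change of 1.31 ± 0.35 (edgeR FDR 0.208), and of 0.42 ± 0.48 with scaling to macrophage markers. Of the other CCR1 ligands, Ccl3 had 0.35 ± 0.52 and Ccl9 had 1.02 ± 0.47, both with overlapping groups, and the low Ccl5 had 2.73 ± 1.95 without overlap. The CXCR2 ligands differed in direction. Ppbp, which encodes the platelet chemokine CXCL7, fell from 972, 604 and 308 CPM to 20.98, 6.55 and 2.07 CPM (log2 fold change -5.99 ± 0.85, FDR 0.0324 by edgeR's quasi-likelihood test). Its call held without Ptgs-competent replicate 3 (FDR 0.0260) and was lost, at an FDR of 0.0637 to 0.183 in the same edgeR test, when any other single library was left out and, at 0.0969, with scaling to macrophage markers. The log2 fold change stayed between -5.51 and -7.12 with 1 library left out, the latter without Ptgs-deficient replicate 1, and was -6.65 with that scaling. Cxcl2 was at 4597 ± 994 against 8506 ± 2299 CPM (SD, n = 3; log2 fold change 0.89 ± 0.35, and 0.0065 with macrophage-marker scaling). Cxcl12, the ligand of CXCR4, had counts in only 2 libraries, at 53.2 and 4.76 CPM. The part of other cells' transcripts in these ligand values was not tested.

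**Figure D4:**
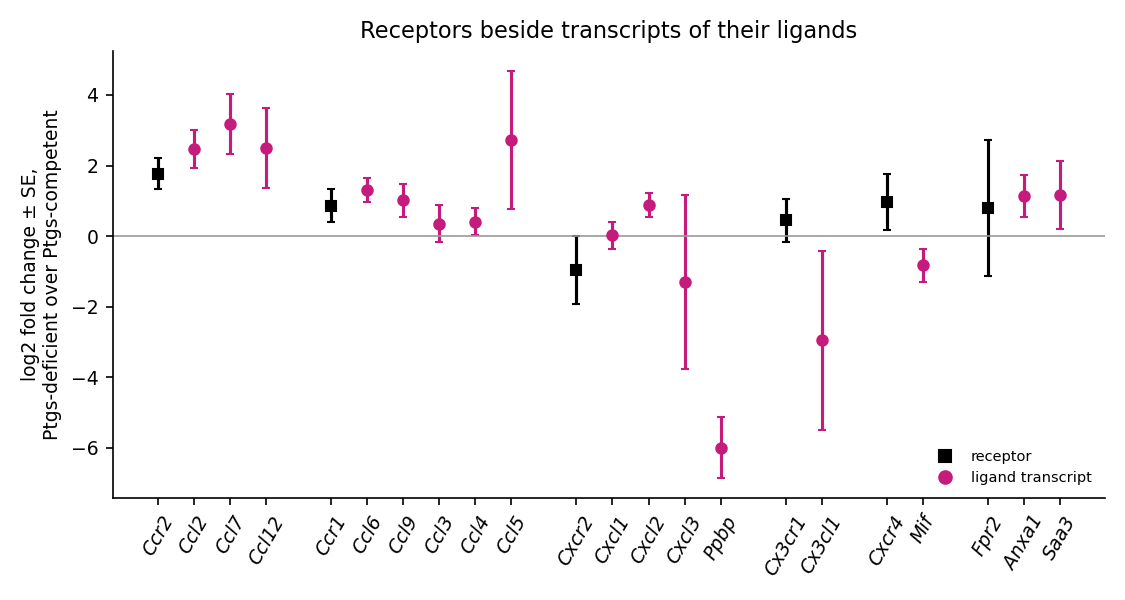
Log2 fold change with standard error of receptors (squares) and of the 16 tested ligand transcripts (circles), grouped by receptor. The CCR2 ligands Ccl2 (2.47), Ccl7 (3.18) and Ccl12 (2.49) lie above 0 beside Ccr2 (1.77), while Ppbp (-5.99) lies far below the other CXCR2 ligands.

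Of 29 other chemoattractant receptor genes, 17 had no count in any library and 10 were tested. None of the 10 was called, against 0.216% of all genes in either direction. An unadjusted p under 0.05 was found for 2, among them Ptafr, against 8.83% of all genes in either direction. The median log2 fold change was 0.68. Fold changes were positive for 9 and negative for 1. Ptafr, the receptor of platelet-activating factor, had a log2 fold change of 0.88 ± 0.32 (SE) and the complement receptor C3ar1 one of 0.75 ± 0.39 (0.51 without Ptgs-competent replicate 3), both without overlap between groups (11% of all genes). With macrophage-marker scaling they came to -0.032 and 0.028. Gpr183, an oxysterol receptor, was the lower one, at 52.3, 63.7 and 39.4 CPM against 0.365, 5.48 and 29.4 CPM, also without overlap (8.01% of all genes). Its log2 fold change was -2.14 ± 1.44 (SE). The value was -4.12 ± 1.80 without Ptgs-deficient replicate 3 and -1.56 ± 1.18 without Ptgs-deficient replicate 1.

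Ccr1 and Ccr2 lie near each other. In the GRCm38 annotation, Ccr1 (chr9:123962124-123968692, minus strand), Ccr3 (chr9:124021972-124031689, plus strand) and Ccr2 (chr9:124101950-124113557, plus strand) follow each other, with gaps of 53279 and 70260 bases. Ccr3, which lies between Ccr1 and Ccr2, had at most 33.6 CPM and was at 0 in 2 libraries. Ccrl2 lies elsewhere on the chromosome (chr9:111054486-111057519, minus strand). No stretch of 36 bases in the last 500 transcript bases of Ccr1, Ccr2, Ccrl2, Cxcr4 or Fpr1 occurred in another gene, whereas 7.28% of those of Cx3cr1, 12.5% of Cxcr2 and 1.72% of Fpr2 did, so that reads of these 3 genes may be shared or lost. The gene model of Cx3cr1 also overlaps 9 other genes.

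Of 23 genes that act downstream of these receptors, 22 were tested, 13 with a positive and 9 with a negative fold change, a median log2 fold change of 0.37 and no call. An unadjusted p under 0.05 was found for 3, against 8.83% of all genes. Rgs2, which turns off G protein signals, was at 770.4, 461 and 274 CPM against 1343, 949.8 and 972 CPM (log2 fold change 1.12 ± 0.40, SE, and 0.87 without Ptgs-competent replicate 3). Gnb2, a G protein beta subunit, had a log2 fold change of 0.77 ± 0.30, which turned to -0.30 with macrophage-marker scaling, where Rgs2 had 0.38. Rgs16, another regulator of G protein signals, had -4.71 ± 1.70, with 359 CPM in Ptgs-competent replicate 3 against at most 15.0 CPM in the other libraries, and without that library it had -1.51 ± 2.67. Prex1, an exchange factor for Rac, had 1.16 ± 0.59 (adjusted p = 0.708 by edgeR's quasi-likelihood test). It had 2.02 ± 0.54 without Ptgs-competent replicate 1 and 0.29 ± 0.71 with scaling to macrophage markers.

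The genes whose log2 CPM ran closest to a member over the 6 libraries were found by Pearson correlation, given here as a description of libraries that share group and depth. For Ccr2 they were F13a1 (r = 0.997), Csk (0.996) and Ifitm3 (0.995), and 95 genes exceeded 0.95. For Ccrl2 they were F13a1 (0.998), Snx5 (0.996) and Ccr2 itself (0.993), with 89 genes above 0.95. F13a1, which encodes a coagulation factor subunit made by monocytes and macrophages, was at 1961, 1297 and 707 CPM in Ptgs-competent and 3686, 4012 and 3725 CPM in the Ptgs-deficient pools. For Ccr1 they were Cacybp (0.997), Sppl2a (0.986) and P2ry12 (0.985).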

How the data were processed

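The 6 libraries were made from 800 pg of RNA each with the QuantSeq 3′ FWD kit, and no molecular identifiers are stated. The authors deposited a table of raw counts per gene, not normalized, made with BBDUK, fqtrim, cutadapt, STAR (GRCm38) and featureCounts on Ensembl genes. Their submitters' processing notes also name bcl2fastq and edgeR. Tool versions, strandedness and the treatment of multi-mapped reads are not given in the sources used here, so that overlapping or similar genes may share or lose reads. Both sexes of mice were used in the study.

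Counts were fitted in R 4.3.3 with edgeR 4.0.16: filterByExpr (minimum count 10, total 15) kept 8793 genes, libraries were scaled by TMM, and groups were compared by the two-sided quasi-likelihood test with Benjamini-Hochberg adjustment over all 8793. Calls required an FDR no higher than 0.05 and an absolute log2 fold change of at least 1.5. The standard error is the absolute log2 fold change over the square root of F. CPM uses counts in tested genes times the TMM factor. Depth limits detection: 3 counts equal 0.357 to 0.647 CPM, which covers counting error only. Likeness used log2 CPM with a prior count of 2. Alternatives used DESeq2 1.42.0 and limma 3.58.1 (voom), other scalings and filters, a replicate block and leaving out each library. Scripts were tested on simulated data. Positions come from GENCODE M21 and promoter windows from RefSeq, both GRCm38.

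The members and lists were chosen with earlier results of these data known. Named genes were all members, up to 4 genes per pathway list with the smallest p plus any called, and the 3 genes most like each of the 3 members with the smallest p. Ccl3, Ccl5, Ccl12, Ccl9, Ccl19, Ccl21a, Cxcl2, Cxcl12, Rarres2, Cmklr1, Ccr3, Fpr3 and the marker genes were named after their values were seen. 1 receptor gene of the pathway lists is not reported here.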

Additional observations from a re-analysis of the deposited data

How the results depend on the processing

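Against 19 genes called by the edgeR quasi-likelihood test, the likelihood ratio test called 241, DESeq2 328, limma voom 123, the test without the count filter 252, the replicate block 77 and scaling to summed macrophage markers (chosen after seeing the data) 1, and 0 to 25 were called with 1 library left out. The count was 0 without Ptgs-competent replicate 1, 11 without Ptgs-competent replicate 2, and 2, 4 and 3 without Ptgs-deficient replicates 1, 2 and 3. Of the members, 0 were called (2 at an unadjusted p under 0.05), and 1, Ccr2, was called by the likelihood ratio test, by DESeq2, by voom and without the filter. Leaving out any library called 0 members. Ccr2 had an unadjusted p under 0.05 in each setting, and Ccrl2 in each but macrophage-marker scaling. Members without overlap numbered 2, or 3 with RLE size factors and with library totals only. Under TMM scaling 11% of all genes were higher and 8.01% lower without overlap. These shares were not counted under the other scalings, so the counts of members there have no background beside them. The log2 fold change turned to -0.082 for Cx3cr1 under macrophage-marker scaling, to 0.56 (voom), 0.40 (replicate block) and 0.76 (without Ptgs-competent replicate 3) for Fpr1, and to -0.46 for Fpr2 without Ptgs-deficient replicate 1; the cause was not tested. With 1 library left out, Fpr1 ranged from -1.20 to 0.76 and Fpr2 from -0.46 to 1.84. Of 136 member values under alternatives, 127 kept direction and call, 5 reversed and 4 gained the call. Of the other 15 genes tracked (255 values), 3 turned under macrophage-marker scaling, Ptafr to -0.032, Cmklr1 to -0.259 and Gnb2 to -0.300. Ppbp lost its call in 6 settings. Others gained a call in 12, among them Ccl2 and Ccl7 under the likelihood ratio test, DESeq2, voom, the replicate block and no filter. Macrophage-marker scaling moved the median log2 fold change of all genes to -0.91, voom to 0.39 and the replicate block to 0.26. Deviations from the group mean correlated at -0.05, -0.02 and -0.02 between libraries of the same number. Between libraries of different number the correlations ran from -0.02 to 0.05. These values gave no sign of pairing, and between single variable libraries they cannot exclude it. The replicate block called 0 members (Ccr2 FDR 0.0530 by edgeR). At 3 libraries a group and 4431184 to 8760679 counts, the low Fpr1 and Fpr2 have standard errors of 1.59 and 1.93 on the log2 scale.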
